A study of Mus musculus with 24 samples.

Results

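The distribution of total H2AX over input was examined in mouse embryonic fibroblasts (MEFs) that lack SIRT7, with chromatin immunoprecipitation followed by sequencing (ChIP-seq). The members were the 4 H2AX libraries and the 4 input libraries labelled SIRT7-KO, taken by their antibody and genotype labels, and they made up 8 of the 24 labelled libraries. Each of the 4 groups, H2AX of KO females, H2AX of KO males, input of KO females and input of KO males, held 2 libraries. All cells were C57BL6 MEFs that had received 5 Gy of X-rays and 30 min of recovery, so no unirradiated group entered any comparison. The 8 WT libraries of the same kinds and the 4 gH2AX libraries of KO cells served for comparison. The labels name neither the KO allele nor the number of embryos, and do not say whether both libraries of a group had their own culture. Their p-values measure only the spread between these samples, which may be technical. Input is sheared chromatin sequenced without immunoprecipitation, and a ratio to input therefore gives H2AX relative to the DNA recovered at each place.

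H2AX is a variant of histone H2A that is built into nucleosomes throughout the genome. After a DNA double-strand break, kinases of the ATM family phosphorylate its tail, and the modified form, gH2AX, gathers repair proteins over the flanking chromatin. An antibody against total H2AX is used to show how much of the substrate is present, modified or not. SIRT7 is a NAD-dependent deacylase of the sirtuin family, found mainly in nucleoli, that acts on histones and is linked to ribosomal DNA and to DNA repair.

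Values were read counts in bins of 100 kb. Of 24639 autosomal bins, 24033 held enough reads to be tested. A level below is given in CPM, counts scaled to the autosomal reads of the library, and a log2 ratio is H2AX over input, averaged over the sexes, with its standard error (SE) from an edgeR quasi-likelihood fit. Calls were made at an adjusted p below 0.05, and a call was strong where the log2 ratio also reached 0.25 in size. Autosomal reads ranged from 63.7 M to 236 M in H2AX libraries and from 87.9 M to 210 M in input libraries, and the smallest library, H2AX of KO males replicate 2, had a median of 2381 reads per autosomal bin. The labels of sex fitted the reads, chromosome Y taking 0.0868% to 0.0918% of reads in the 4 KO female libraries and 1.57% to 1.62% in the 4 KO male libraries. A 100 kb bin cannot show the loss of an exon, and the bin of Sirt7 had 50.7 to 51.1 CPM of H2AX and 34.6 to 37.8 CPM of input in KO libraries. Its neighbour with P4hb had 63.3 to 65.2 CPM of input in KO and 35.1 to 37.1 CPM in WT, a step in the amount of DNA at this place that set the KO libraries apart from WT.

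A few promoters from both ends of the H2AX distribution are shown as examples, chosen for their CG content and not typical of every gene there: in the highest bin the promoter of Ccdc89 had 3 CG from 250 bases before to 50 after its start, and that of Tmem126a 23. The 150 bases before the annotated start are given 5′ to 3′ along the gene, from RefSeq on GRCm38.p6, with each CG dinucleotide in capitals. CG reads the same on both strands. The first 2 come from bins high in H2AX. Rbm19 (chr5:120116363-120116512, plus strand) encodes an RNA-binding protein of ribosome biogenesis, and Ajap1 (chr4:153482831-153482980, minus strand) a protein of adherens junctions. The next 2 lie in a bin low in H2AX. Prl (chr13:27057420-27057569, plus strand) encodes the pituitary hormone prolactin, and Prl3d1 (chr13:27094039-27094188, plus strand) a placental lactogen. The last, Lmbrd1 (chr1:24678394-24678543, plus strand), lies in the lowest bin and encodes a lysosomal membrane protein of vitamin B12 export; it is the first of 2 Lmbrd1 promoters in the table.
Rbm19: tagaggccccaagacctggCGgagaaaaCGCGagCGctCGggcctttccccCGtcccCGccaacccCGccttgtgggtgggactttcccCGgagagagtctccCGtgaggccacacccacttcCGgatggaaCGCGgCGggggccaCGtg
Ajap1: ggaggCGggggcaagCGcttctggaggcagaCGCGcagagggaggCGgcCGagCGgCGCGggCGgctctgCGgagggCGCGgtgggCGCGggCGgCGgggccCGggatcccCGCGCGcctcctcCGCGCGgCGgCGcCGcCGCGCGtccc
Prl: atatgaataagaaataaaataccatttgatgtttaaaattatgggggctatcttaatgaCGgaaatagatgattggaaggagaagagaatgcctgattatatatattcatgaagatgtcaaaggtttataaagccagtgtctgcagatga
Prl3d1: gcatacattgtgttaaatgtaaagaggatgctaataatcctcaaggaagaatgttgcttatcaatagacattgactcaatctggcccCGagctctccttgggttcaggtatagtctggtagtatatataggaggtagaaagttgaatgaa
Lmbrd1: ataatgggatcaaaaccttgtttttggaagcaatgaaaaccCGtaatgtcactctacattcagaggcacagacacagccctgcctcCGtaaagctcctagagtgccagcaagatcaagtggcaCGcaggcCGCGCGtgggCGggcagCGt
The Rbm19 stretch holds 15 CG and the Ajap1 stretch 30, the Prl and Prl3d1 stretches hold 1 each, and the Lmbrd1 stretch holds 8. Of 20085 promoters of protein-coding genes in tested bins, 89.2% had at least 1 CG in these 150 bases, with a median of 7. A count of 15 or more was reached by 21.6% and 30 or more by 0.498%, and 21.8% had 1 or none. With 8, the Lmbrd1 stretch in the lowest bin was near the median, a count that 47.9% of promoters reached or passed.

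The first question was where H2AX in KO fibroblasts lay above and below input. H2AX was spread over the genome with shallow, wide highs and lows. Its log2 ratio had a median of 0.0056 over the 24033 bins and lay between -0.36 and 0.48 for the middle 90% of them (5th to 95th percentile). Of these bins, 20342 (84.6%) were called, 10347 (43.1%) higher and 9995 (41.6%) lower than input. The balance of the directions depended on the scaling: 8942 bins were higher and 11520 lower when the 7 bins with over 20 times the median reads were left out of the totals, and 10133 and 10268 with TMM factors. Strong calls numbered 4794 higher (19.9%) and 3677 lower (15.3%). In 4790 and 3671 of them the 4 H2AX libraries did not overlap the 4 input libraries, which their choice by size in these same libraries all but ensures. Over all 24033 tested bins, called or not, every H2AX library lay above every input library in 9548 and below every input library in 9022. Strongly higher bins held 23.3% to 23.5% of H2AX reads and 17.5% to 17.7% of input reads. Strongly lower bins held 18.3% to 18.6% of H2AX reads and 24.1% to 24.5% of input reads. The direction of both gaps follows from the choice of these bins by the same ratio. Large ratios were rare. The ratio was 0.5 or more in 1024 bins (4.26%), -0.5 or less in 87 (0.362%), 1 or more in 4 bins and -1 or less in 1 bin.

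The 4 bins with a ratio of 1 or more stood apart from the rest of the upper end. The highest was the 100 kb bin at chr7:90400001-90500000, with part of Dlg2 (a synaptic scaffold protein), Sytl2 (a vesicle-trafficking protein) and Tmem126b (an assembly factor of mitochondrial complex I). It had 217 and 243 CPM in the H2AX libraries of KO females and 233 and 324 in those of KO males, against 69.5 and 75.6 CPM in input of KO females and 82.7 and 94.0 in input of KO males. Every H2AX library was above every input library, and replicate 2 of KO males was the highest of both kinds. The log2 ratio was 1.65 ± 0.04 (SE), a 3.15-fold excess (adjusted p = 1.50e-46). The rest of Dlg2 was low in H2AX: over the 19 bins inside the gene the median was -0.23, with a range of -0.37 to -0.06.

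The next 3 bins followed the same pattern across libraries. A bin at chr14:45800001-45900000 with a pseudogene and no protein-coding gene had 160, 175, 169 and 233 CPM of H2AX, against 61.9, 62.5, 69.7 and 77.3 CPM of input, each in the order KO female replicates 1 and 2 and KO male replicates 1 and 2 (1.43 ± 0.04). A bin with Srgap1 (a GTPase-activating protein of Slit signalling) and BC048403 at chr10:121700001-121800000 had 124, 136, 131 and 173 CPM of H2AX, against 51.1, 52.5, 54.5 and 60.8 CPM of input (1.35 ± 0.04). A bin with Hsd17b11 (a steroid dehydrogenase of lipid droplets), Sparcl1 (a matrix protein) and Nudt9 (an ADP-ribose hydrolase) at chr5:104000001-104100000 had 107, 117, 114 and 149 CPM of H2AX, against 50.3, 52.7, 53.8 and 59.2 CPM of input (1.16 ± 0.03). The same library was highest in all 4 bins. H2AX levels in them varied between libraries with a coefficient of variation of 15.3% to 18.9%, against 1.51% to 5.28% in 5 bins that came next. Input was above the median bin here by 1.46 to 2.17 times, and the part of repeated sequence in these values was not tested.

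A further 5 bins with lower ratios were steady across libraries. The bin of Rbm19 had 64.3, 63.8, 62.1 and 63.3 CPM of H2AX, against 32.0, 32.9, 29.5 and 32.3 CPM of input, with a log2 ratio of 1.00 ± 0.02 (adjusted p = 1.32e-46). The bin at chr7:59700001-59800000 (0.86 ± 0.02) holds no protein-coding gene but Snhg14 and an array of small nucleolar RNA genes, part of the imprinted Prader-Willi region. Its input was 2.17 times the median bin, as high as in the highest bin, and the part of repeated sequence was not tested there either. Kdm4b, a histone demethylase, and Uhrf1, a reader of hemimethylated DNA, shared a bin at 0.85 ± 0.02. Ajap1 had 0.85 ± 0.02 and Ubr4, a ubiquitin ligase of the N-degron pathway, 0.84 ± 0.02. In all 5 bins, which were chosen by this ratio, every H2AX library exceeded every input library.

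At the other end, 1 bin lay far below all others. The bin with part of Lmbrd1 at chr1:24600001-24700000 had 38.8 and 37.9 CPM in the H2AX libraries of KO females and 39.1 and 37.0 in those of KO males, against 387 and 378 CPM in input of KO females and 330 and 360 in input of KO males. The H2AX level was that of an ordinary bin, while input was 9.81 times the median bin. The log2 ratio was -3.25 ± 0.03, so that H2AX was 0.105 times input (adjusted p = 4.21e-80). The next lowest bin, at chr10:16500001-16600000, holds no annotated gene, and its nearest protein-coding gene, Cited2, lies 1123 kb away. It had 23.8, 22.8, 24.9 and 24.9 CPM of H2AX, against 37.9, 38.6, 37.8 and 38.2 CPM of input (-0.66 ± 0.03). The bin with Prl and Prl3d1 had 26.6, 24.9, 26.7 and 27.7 CPM of H2AX, against 42.0, 41.4, 41.5 and 40.9 CPM of input (-0.65 ± 0.03). Neither group overlapped the other in these bins, which were chosen by the same ratio. Of the remaining 7, 2 neighbours lie in Cadm2, a synaptic adhesion gene (-0.63 ± 0.03 and -0.61 ± 0.03), and 5 hold no protein-coding gene or only 2210408I21Rik, at -0.58 to -0.65. One of them, at chr12:3100001-3200000, had an input 49.9 times the median bin, 0.185% of all autosomal input reads.

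**Figure D1:**
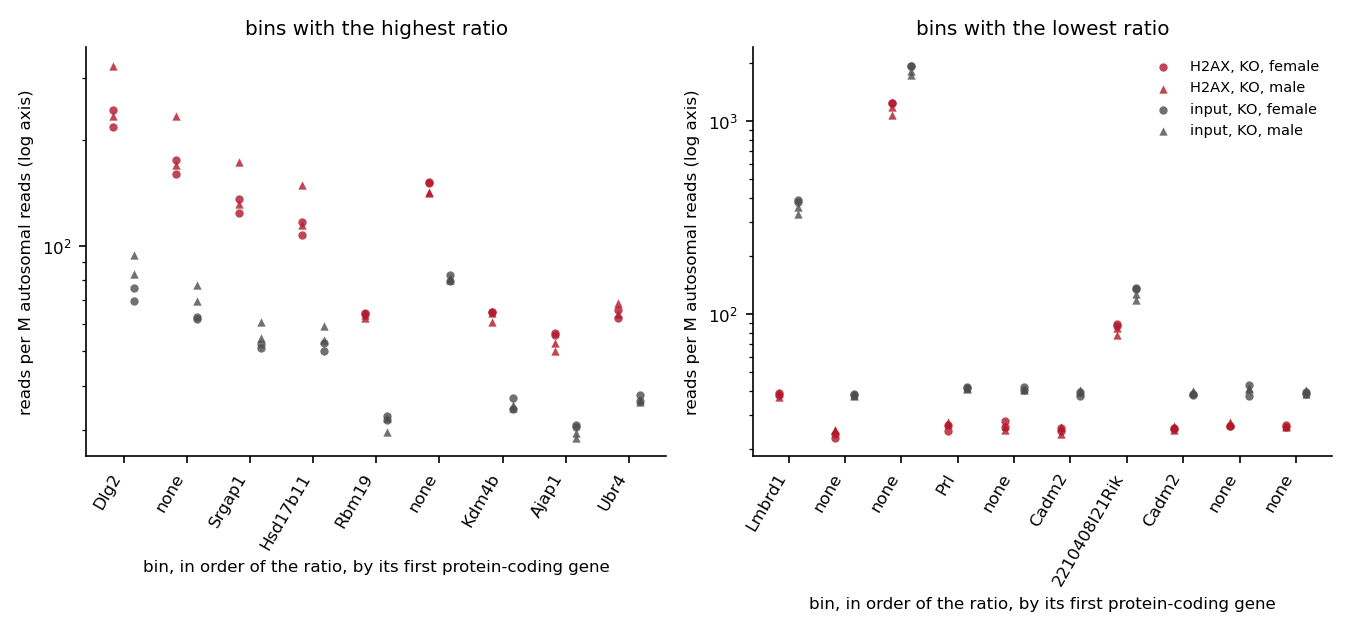
CPM of autosomal reads (log axis) in each KO library for 9 of the 10 bins with the highest log2 ratio (left) and the 10 with the lowest (right), H2AX in red left of input in grey, circles for females and triangles for males. H2AX lies above input in all 4 libraries on the left and below it on the right, and the spread between H2AX libraries is widest in the first 4 bins, where KO male replicate 2 reaches 324 CPM in the highest.

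Neighbouring bins went together, and some highs and lows ran over megabases. The correlation over bins was r = 0.84 at a distance of 1 bin (24005 pairs), 0.58 at 10 bins (23829 pairs) and 0.28 at 50 bins (23070 pairs), which describes these bins, all read from the same 8 libraries. Strongly higher bins fell into 1510 unbroken stretches, 91 of them of 10 bins or more, and strongly lower bins into 1157 stretches, 72 of that length. Most stretches were short: the median was 2 bins in both directions, 724 and 572 were single bins, and the long ones held 34.3% of strongly higher and 32.7% of strongly lower bins. Stretches of 10 or more bins had 21.5 protein-coding genes per Mb where H2AX was higher and 0.740 where it was lower, while all tested bins had 8.55.

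The widest stretch above input was chr4:137400001-143200000, with 58 bins, 86 genes and a median log2 ratio of 0.50. It holds Igsf21, Eif4g3 (a translation initiation factor) and Arhgef10l. Summed over the stretch, H2AX had 2848 and 2879 CPM in KO females and 2824 and 2814 in KO males, against 1992 and 2008 CPM of input in KO females and 1982 and 1975 in KO males. Stretches were built from bins strongly called in these same libraries, so the gap between the groups follows from that choice. Replicates differed little. The same chromosome held the next, chr4:150900001-156300000 (54 bins, median 0.61), with Camta1, the zinc finger factor Prdm16 and Ajap1. The third, chr11:117700001-121700000 (40 bins, 103 genes, median 0.53), holds Rbfox3 (a neuronal splicing factor), Rptor (a subunit of mTORC1) and Sirt7 itself. The others of the 6 widest were chr15:85400001-88900000 (Tbc1d22a, Tafa5, Celsr1, median 0.51), chr12:104400001-107600000 (Clmn, Syne3, Ak7, 0.39) and chr7:43800001-46900000 (31 bins with 145 genes, among them Klk1b21 and Abcc8, 0.52).

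The widest stretches below input were poor in genes, and several hold genes of neuronal adhesion. The stretch at chr14:107700001-111800000 had 41 bins and 3 genes, Slitrk5, Slitrk6 and Slitrk1, which encode transmembrane proteins of synapse formation. Summed over it, H2AX had 1064 and 1070 CPM in KO females and 1095 and 1101 in KO males, against 1416 and 1392 CPM of input in KO females and 1387 and 1406 in KO males. All H2AX libraries were below all input libraries, as the choice of these bins implies, and the median log2 ratio was -0.36. An equally wide stretch at chr3:45600001-49700000 (-0.34) holds only Pabpc4l. Cadm2 lies in chr16:65900001-69800000 (39 bins, -0.38), Nudt12 in chr17:59000001-62500000 (35 bins, -0.41), Adgrl3, a latrophilin receptor, in chr5:78400001-81400000 (30 bins, -0.37), and Txlnb and the transcriptional regulator Cited2 in chr10:15100001-17800000 (27 bins, -0.39).

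**Figure D2:**
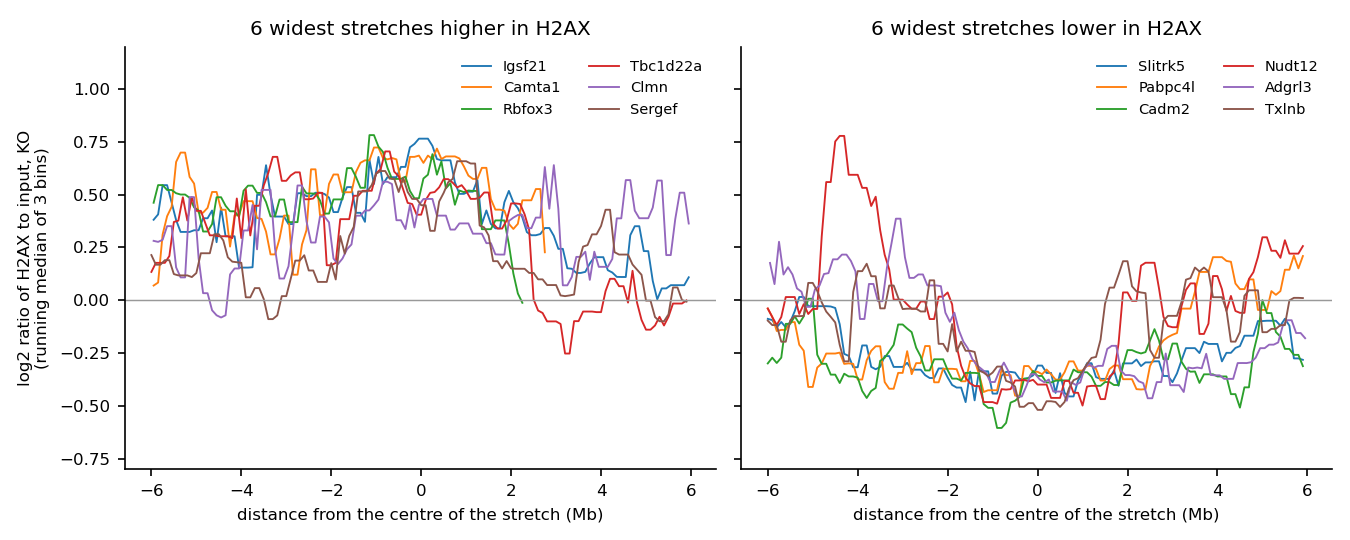
Log2 ratio of H2AX to input in KO libraries (running median of 3 bins) against the distance from the centre of the 6 widest stretches above input (left) and below input (right), each named by its first gene. The median ratio of a stretch is 0.39 to 0.61 over 3.1 to 5.8 Mb on the left and -0.41 to -0.34 over 2.7 to 4.1 Mb on the right.

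The ratio increased with the number of genes in a bin. Its median was -0.11 in 13359 bins with no midpoint of a protein-coding gene, 0.09 in 5937 bins with 1, 0.17 in 2367 bins with 2, 0.24 in 1704 bins with 3 to 4 and 0.35 in 666 bins with 5 or more. In these 5 classes 25.1%, 56.9%, 73.7%, 78.3% and 80.0% of bins were called higher, against 43.1% of all bins. The read shares of the libraries showed the same order. Bins with 5 or more genes held 3.01%, 3.03%, 3.04% and 3.02% of H2AX reads, against 2.42%, 2.44%, 2.44% and 2.43% of input reads, in KO female replicates 1 and 2 and KO male replicates 1 and 2. Bins without a gene midpoint held 54.7% to 54.8% of H2AX reads and 59.6% to 59.9% of input reads. The groups did not overlap in either class. By an exact two-sided permutation test of 4 against 4 libraries, p was 0.0286 in each of the 5 classes, the smallest value the 70 splits allow (adjusted p = 0.0323 over 26 classes of bins).

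Among bins that no protein-coding gene touched, the ratio fell with the distance from such genes. These bins may hold genes of other kinds. The median was -0.07 at 50 to 200 kb from the nearest protein-coding gene (measured from the centre of the bin), -0.18 at 200 to 500 kb, -0.26 at 500 kb to 1 Mb and -0.28 beyond 1 Mb. In the last class 633 of 658 bins (96.2%) were called lower, against 41.6% of all bins, and 2 were called higher. Bins without a midpoint and wholly inside 1 protein-coding gene had a median of -0.06 (2083 bins). This was above the -0.17 of bins that no protein-coding gene overlaps (8412 bins).

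**Figure D3:**
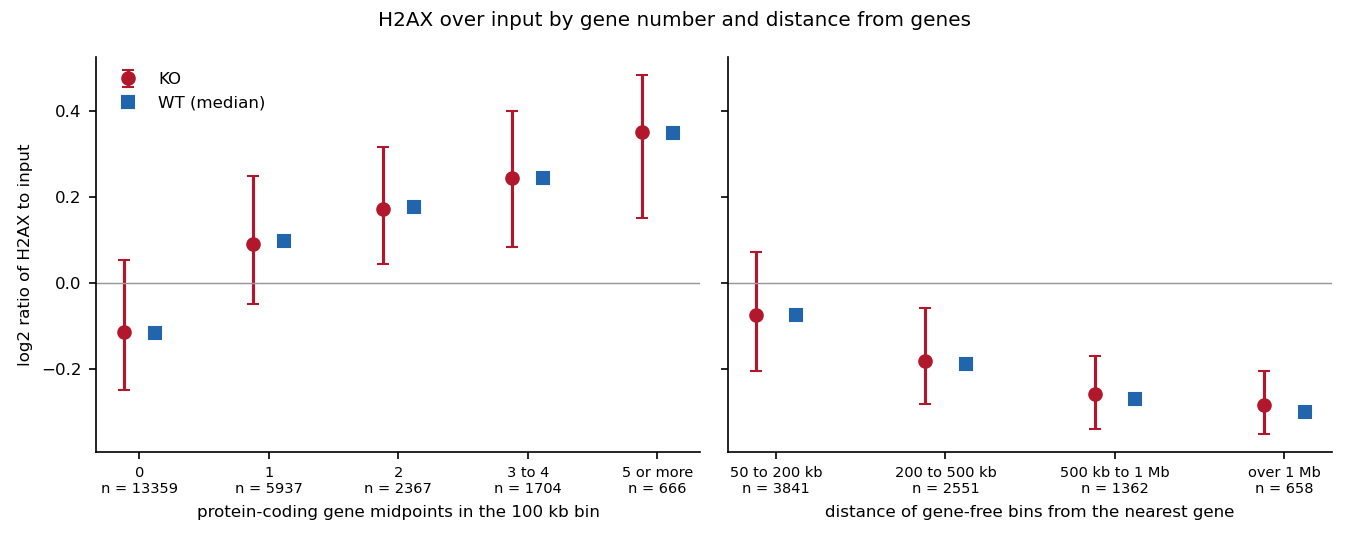
Median log2 ratio of H2AX to input in KO (circles, with interquartile range over bins) and WT (squares, median). Bins are grouped by the number of protein-coding gene midpoints per 100 kb (left). Gene-free bins, those that no protein-coding gene overlaps, are grouped by distance from the nearest such gene (right). The KO median runs from -0.11 to 0.35 with gene number and reaches -0.28 beyond 1 Mb, and WT medians lie close to those of KO.

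Gene number alone did not order all gene-rich bins. Of the 666 bins with 5 or more genes, 91 were called lower than input, and 78 of these 91 hold receptor, keratin or histone gene families, which 132 of the 666 carry. Lower were 65 of 101 such bins with olfactory receptors, 6 of 7 with replication-dependent histones, 3 of 5 with bitter taste receptors, 6 of 17 with keratins or keratin-associated proteins and 1 of 5 with vomeronasal receptors, some bins holding several of these. Other clustered families were not low in this way. Lower were 0 of 35 such bins with zinc finger (Zfp) genes and 0 of 9 with defensins. Clustered protocadherins had 0 of 5 lower and Hox clusters 1 of 4. The lowest of the 91 bins, at chr7:86300001-86400000 with Olfr303, Olfr304 and Olfr305, had a log2 ratio of -0.42 ± 0.03. A bin of the major histone cluster with H3c6 and H3c7 followed at -0.37 ± 0.03. Gene-rich bins were also grouped by promoter sequence. Bins with no listed promoter were left out, and these groups were not set against the families. A promoter was counted as island-like where, from 250 bases before to 50 after the start, GC made up 50% or more and CG occurred at 0.6 times or more the frequency its C and G content gives. In bins with 5 or more genes, the median ratio was 0.44 where every promoter was island-like (36 bins, all 36 called higher), 0.41 where some were (428 bins, 410 higher and 9 lower) and -0.02 where none was (176 bins, 64 higher and 81 lower). Of the 8396 promoters in strongly higher bins 53.8% were island-like and of the 529 in strongly lower bins 21.2%, against 46.5% of all 20085. Base composition also affects how well DNA is amplified and sequenced, and its part in the ratio was not tested.

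Gene lists were described by the bins their genes overlap, beside the all-bin median of 0.0056 and the 43.1% of bins called higher and 41.6% called lower. Since a bin of 100 kb often holds several genes, no value belongs to 1 gene alone. Each bin was therefore also set against the median of all bins with its number of genes, and the median of these differences is given as the density-matched difference. Genes used in every cell had high ratios, as had other bins of their gene number. Cytosolic ribosomal protein genes had a median of 0.31 (70 of 79 bins higher, 3 lower), mitochondrial ribosomal protein genes 0.31 (76 of 86 higher, 4 lower) and housekeeping genes 0.31 (33 of 35 higher, 1 lower). The density-matched differences were 0.02 for the cytosolic list, 0.05 for the mitochondrial and 0.02 for the housekeeping list. The bin of Rplp0, which encodes a protein of the ribosomal stalk, had 54.7, 54.4, 54.8 and 53.5 CPM of H2AX, against 33.0, 33.7, 32.9 and 34.2 CPM of input (0.70 ± 0.02, adjusted p = 7.65e-39). Rpl22 had 0.65 and Rps15 0.63, whereas Rps12 (-0.13 ± 0.03), Rps27a (-0.09) and Rps20 (-0.08) were the lowest of the list. Eef2, the elongation factor that translocates the ribosome, had 0.63 and Gapdh, a glycolytic enzyme, 0.54. Tbp, the TATA-binding protein, was lowest among housekeeping genes at -0.11 ± 0.03.

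The genes of H2AX itself and of its pathway were mixed. Of 43 bins, 31 were higher and 6 lower, with a median of 0.15 and a density-matched difference of -0.02. The bin of H2ax had 47.4, 47.0, 49.8 and 46.2 CPM of H2AX, against 36.8, 35.6, 36.1 and 36.1 CPM of input (0.40 ± 0.02, adjusted p = 1.41e-24), and no library of one group reached the other. Among the kinases that phosphorylate H2AX, Atm had 0.07 ± 0.03, Atr -0.10 ± 0.02, and Prkdc, at 0.03 ± 0.02, was not called (adjusted p = 0.215). Among proteins that bind breaks and gH2AX, Rad50 had 0.34, Mre11a 0.30, Mdc1 0.25 and Trp53bp1 0.22. The ubiquitin ligase Rnf8 had the highest ratio of the list, 0.54 ± 0.02, while Rnf168, the next ligase of the cascade, had 0.09 ± 0.02. Of the Eya phosphatases, which remove the phosphate on the last tyrosine of H2AX, Eya2 had 0.45, Eya3 0.14, Eya1 0.0090 (not called) and Eya4 -0.11. The FACT chaperone subunits Ssrp1 and Supt16 had 0.38 and 0.12.

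Repair, stress and cell-cycle lists lay above the all-bin median but close to bins of their gene number. The density-matched difference was 0.05 for end joining, 0.02 for homologous recombination, 0.02 for p53 targets, -0.0047 for replication and cell cycle, -0.0053 for immediate-early genes and 0.08 for sirtuins. End-joining genes had a median of 0.28 (17 of 21 bins higher, 3 lower), led by Paxx (0.64), a cofactor of Ku, and with Xrcc4, the partner of DNA ligase IV, lowest (-0.13). Genes of homologous recombination and the checkpoint had 0.09 (22 of 38 higher, 10 lower), with Xrcc3 highest (0.51). Targets of p53 had 0.20 (29 of 37 higher, 3 lower), from Pidd1 (0.55) to the death receptor Fas (-0.25). Replication licensing and cell-cycle genes had 0.22 (22 of 29 higher, 1 lower), with the licensing factor Cdt1 at 0.63 and the retinoblastoma gene Rb1 at -0.18. Immediate-early genes had 0.23 (17 of 24 higher, 4 lower). They ranged from Klf2 (0.60) to Klf6, a related zinc finger factor, whose bin had 30.3, 28.8, 31.5 and 29.4 CPM of H2AX, against 40.3, 40.8, 43.4 and 41.7 CPM of input (-0.46 ± 0.03). All 7 sirtuin bins were higher, with a median of 0.39: Sirt7 had 0.52 ± 0.02, Sirt2 0.46, Sirt3 0.43, Sirt6 0.39, Sirt4 0.31, Sirt5 0.16 and Sirt1 0.13.

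Genes known for strong expression in fibroblasts were not uniformly high. Across the fibroblast list 23 of 39 bins were higher and 13 lower (median 0.10). The haematopoietic list had 0.31 (17 of 19 higher, 2 lower), the epithelial list 0.18 (12 of 12 higher), the endothelial list 0.18 (9 of 15 higher, 4 lower) and the neuronal marker list -0.06 (11 of 27 higher, 14 lower). Their density-matched differences were -0.02 for fibroblast, 0.07 for haematopoietic, 0.04 for epithelial, 0.10 for endothelial and -0.13 for neuronal markers. These libraries measure DNA, so the lists do not tell which cells were present. Dcn, which encodes the matrix proteoglycan decorin, had 28.9, 27.6, 30.2 and 28.5 CPM of H2AX, against 39.9, 38.7, 40.9 and 40.1 CPM of input (-0.46 ± 0.03). Every H2AX library there was below every input library. Its neighbour Lum, for lumican, had -0.35, Vim, for the intermediate filament vimentin, -0.31 and Col3a1 -0.24. Col5a1 (0.67), Col6a1 (0.44) and the receptor gene Pdgfrb (0.40) stood at the other end. Among haematopoietic markers Ptprc, for CD45, had -0.39 and Laptm5 0.59, and among neuronal markers Rbfox3 had 0.82, Slc17a7, for a glutamate transporter, 0.48, and Map2 -0.26.

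Gene families in large clusters fell on both sides. Zinc finger (Zfp) genes had a median of 0.17 (291 of 373 bins higher, 30 lower), from Zfp296 (0.71) to Zfp804a (-0.49). Olfactory receptors had -0.06 (77 of 339 higher, 173 lower). Vomeronasal receptors had -0.02 (54 of 216 higher, 88 lower), bitter taste receptors -0.07 (1 of 14 higher, 9 lower) and replication-dependent histones -0.12 (2 of 8 higher, 6 lower). Keratins had 0.15 (22 of 33 higher, 9 lower), defensins 0.09 (13 of 22 higher, 3 lower), clustered protocadherins 0.07 (7 of 10 higher, 1 lower), Hox clusters 0.05 (4 of 9 higher, 1 lower) and imprinted genes 0.11 (24 of 41 higher, 11 lower). Density-matched differences were below 0 for olfactory receptors (-0.30), histones (-0.30), Hox clusters (-0.26), bitter taste receptors (-0.25), defensins (-0.19), vomeronasal receptors (-0.17), keratins (-0.15) and protocadherins (-0.13), and were 0.01 for Zfp and 0.10 for imprinted genes. Zrsr1 was the highest imprinted gene (0.72 ± 0.03) and Ndn the lowest (-0.19).

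Very long genes were mostly low in H2AX. Of 264 bins of long neuronal adhesion genes, 208 were lower and 28 higher (median -0.23). Of 198 bins of long genes at common fragile sites, 121 (61.1%) were lower and 44 higher (median -0.12). This was close to all bins without a gene midpoint, of which 59.7% were lower (median -0.11). It was below the part of those bins wholly inside 1 protein-coding gene, of which 50.8% were lower (median -0.06). The density-matched difference was -0.13 for the adhesion genes and -0.04 for the fragile-site genes. Bins inside one gene differed little or much by gene. Csmd3 had -0.49 to -0.32 over 11 bins, Cdh12 -0.40 to -0.17 over 10 and Lrp1b, which encodes a lipoprotein receptor, -0.38 to -0.16 over 20. Wwox, a fragile-site tumour suppressor, went the other way with 0.20 to 0.50 over its 8 inner bins. Nrxn3, for a presynaptic neurexin, spanned -0.39 to 0.25 over 15 bins, and Tenm3 -0.53 to 0.18 over 12.

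**Figure D4:**
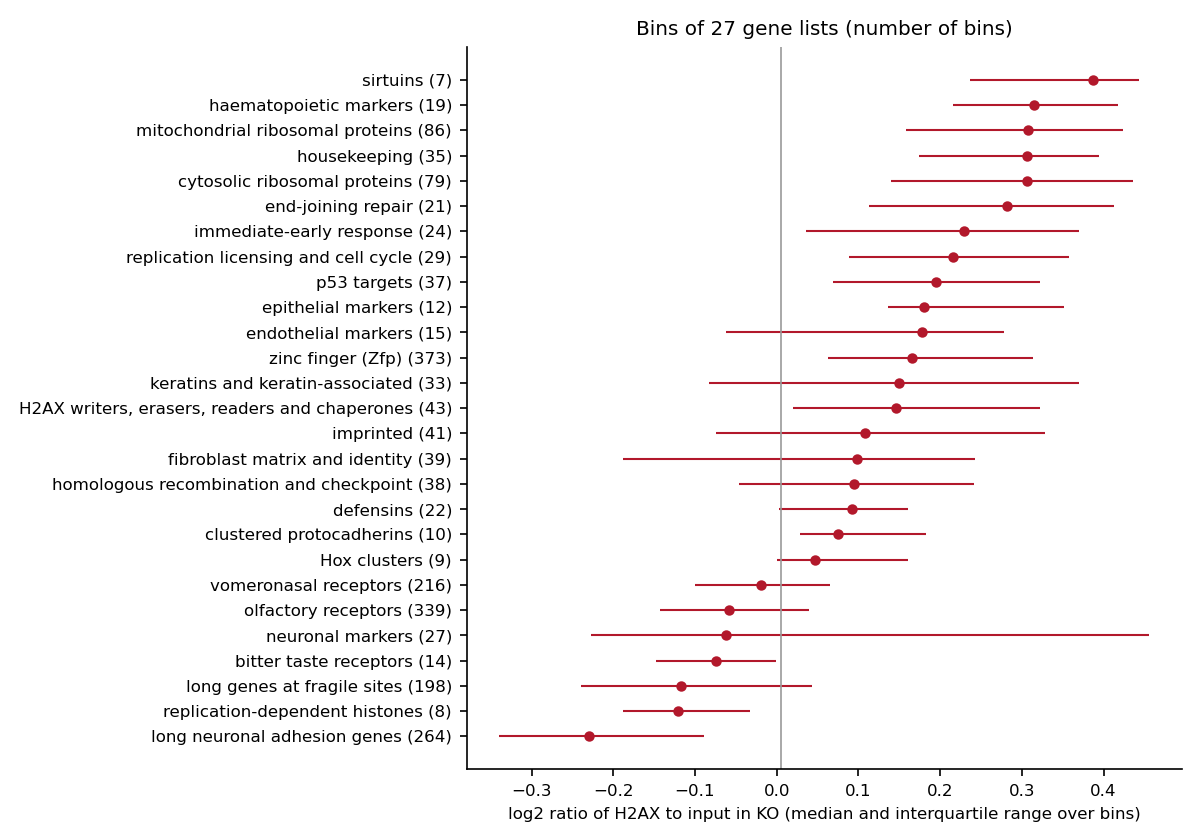
Median log2 ratio of H2AX to input in KO libraries for the bins of 27 gene lists, with the interquartile range over bins and, in brackets, the number of bins. The vertical line is the median of all bins (0.0056), and lists run from 0.39 for sirtuins to -0.23 for long neuronal adhesion genes.

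Whole autosomes differed mildly. The median log2 ratio was highest on chromosomes 7 (0.13) and 11 (0.13), followed by 9 (0.08), 17 (0.07), 5 (0.06), 19 (0.04), 8 (0.04), 4 (0.01) and 2 (0.0067). It was 0.00043 on 13, -0.00075 on 14 and -0.0012 on 12, and then -0.02 on 18, -0.03 on 6, -0.05 on 15 and 1, -0.06 on 10, -0.08 on 16 and -0.12 on 3. Over the 19 autosomes it correlated with genes per Mb (r = 0.81, rho = 0.77), a description of points read from the same libraries. In read shares, chromosome 7 held 5.62% to 5.66% of H2AX reads and 5.06% to 5.08% of input reads, and chromosome 3 held 5.54% to 5.58% of H2AX reads and 5.85% to 5.89% of input reads. The shares of 16 autosomes passed the permutation test (adjusted p = 0.0323) and those of 6, 13 and 18 did not. The last 5 Mb of the autosomes held 3.89% to 3.91% of H2AX reads and 3.47% to 3.48% of input reads.

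A few bins of very many reads bear on these shares. The 7 bins with over 20 times the median held 9.18% of autosomal reads. The largest, at chr2:98600001-98700000, had 48586, 48378, 47435 and 45772 CPM of H2AX, against 66625, 66192, 65274 and 63631 CPM of input (-0.46 ± 0.01). With the 7 bins left out of the totals, the difference on chromosome 2 turned, in log2 of the share, to 0.0085 from the -0.18 found with them. It turned on chromosomes 9 (0.05 in place of -0.06) and 15 (-0.01 in place of 0.03) and in the first 5 Mb (0.02 in place of -0.04) as well, and chromosomes 6, 13 and 18 then passed, below input (-0.03, -0.04 and -0.04).

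The second question was whether the profile depended on sex. Female and male KO profiles were alike: 19068 bins (79.3%) were called in KO females and 18609 (77.4%) in KO males, 17422 bins were called in the same direction in both and 4 in opposite directions. The ratios of the sexes correlated over bins with r = 0.98, and the difference between females and males was within 0.1 in 93.9% of bins. No bin passed the edgeR test of the difference itself (0%), with 1243 bins at an unadjusted p under 0.05, and DESeq2 also called 0. The smallest p belonged to the bin of Mfsd4b5, with 0.25 in females and 0.0098 in males. Its difference of 0.24 ± 0.05 (SE) had an adjusted p of 0.401, so a shift of this size in a single bin did not pass. The count became 28 without H2AX of KO males replicate 1 and 2 without its replicate 2.

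The third question was whether total H2AX over input differed between KO and WT. Its distribution over bins hardly did at this resolution. Each library was scaled to its own autosomal reads, so a change in the whole amount of H2AX was not measured. Over 24033 bins the KO and WT ratios correlated with r = 0.99, and KO minus WT was within 0.1 (log2) in 99.1% of bins and within 0.2 in 99.99%. The SD of the ratio over bins was 0.258 in KO and 0.262 in WT, and that of the difference 0.0377. Medians of KO and WT lay at 0.35 and 0.35 in bins with 5 or more genes, at -0.11 and -0.11 in bins without a gene midpoint and at 0.31 and 0.30 for cytosolic ribosomal protein genes.

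**Figure D5:**
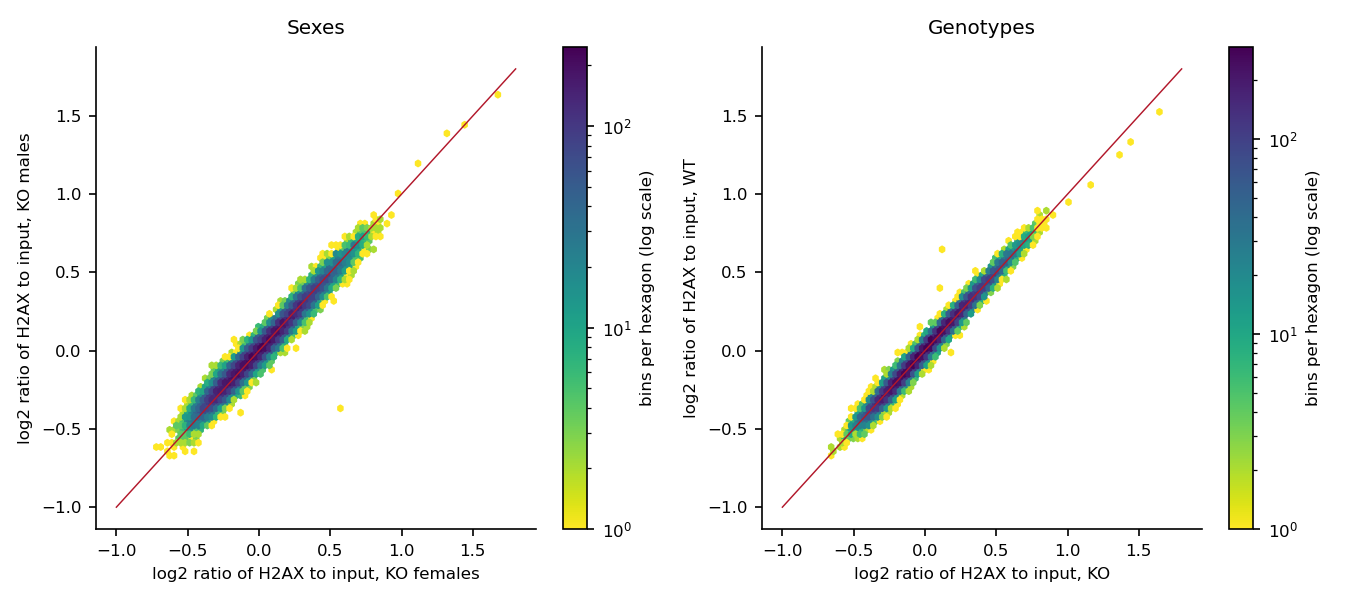
Log2 ratio of H2AX to input per 100 kb bin in KO females against KO males (left) and in KO against WT (right), with the number of bins per hexagon on a log colour scale and the line of equality. Points lie along the line in both panels (r = 0.98 and 0.99), and the bin of Lmbrd1, at -3.25 in KO, lies outside the axes.

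By the interaction of antibody and genotype, 1 bin of 24033 (0.00416%) passed, with 1495 at an unadjusted p under 0.05. This bin, chr17:39800001-39900000, holds AY036118 and Rn18s-rs5, which resembles the gene of 18S ribosomal RNA, and no protein-coding gene. Its H2AX level was 219 and 218 CPM in KO females and 195 and 199 in KO males, against 264 and 266 CPM in WT females and 221 and 225 in WT males. Its input level was 267 and 274 CPM in KO females and 259 and 254 in KO males, against 291 and 287 CPM in WT females and 267 and 257 in WT males. H2AX was thus lower in both KO groups than in WT of the same sex, with no overlap, and input in KO males overlapped that of WT males. The log2 ratio to input differed by -0.17 ± 0.03 (adjusted p = 3.83e-04), with -0.19 in females and -0.15 in males, neither of which passed within a sex (adjusted p = 0.111 and 0.196). Over the other settings and with any 1 library left out, the difference lay between -0.18 and -0.15 and remained called. The count of bins became 11 without H2AX of KO males replicate 1, 3 without its replicate 2 and 3 without input of KO males replicate 2. Reads of ribosomal DNA copies cannot be assigned to this place.

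Within females no bin (0%) passed KO minus WT (edgeR, 1375 at an unadjusted p under 0.05, and 1 bin by DESeq2). Within males 5 bins passed (0.0208%). Of these, 3 were the very high bins described above: those at chr14:45800001-45900000 (0.34 ± 0.07), with Srgap1 (0.33 ± 0.07) and with Sparcl1 (0.31 ± 0.06, adjusted p = 0.0399 each). The H2AX level at chr14:45800001-45900000 was 169 and 233 CPM in KO males, against 124 and 143 CPM in WT males. In females the order was the other way, with 160 and 175 CPM in KO females, against 189 and 232 CPM in WT females, and the differences in the 3 bins did not pass there (-0.10 to -0.15). The bin with Sytl2 behaved alike without passing (0.34 ± 0.08 in males, adjusted p = 0.0661, and -0.08 ± 0.08 in females). The other 2 bins hold no protein-coding gene, chr10:123800001-123900000 (0.23 ± 0.05) and chr10:37600001-37700000 (-0.25 ± 0.05, adjusted p = 0.0465 each). The 5 calls lay close to the threshold. None was left without H2AX of KO males replicate 2, H2AX of WT males replicate 1, input of KO males replicate 1, either input of WT males or either input of WT females, while 120 bins passed without H2AX of KO males replicate 1.

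Finally, total H2AX in KO cells was set against gH2AX of the same cells, with no input in the test. Of 24033 bins, 15671 (65.2%) differed. Relative to the library totals, 7529 (31.3%) had more gH2AX than H2AX and 8142 (33.9%) less. A difference of 0.25 or more was found in 591 bins with more (2.46%) and 1191 with less (4.96%). Without the 7 largest bins in the totals the balance turned to 8547 bins with more and 7280 with less. The bin with Rn18s-rs5 had the largest excess of gH2AX (3.78 ± 0.03, adjusted p = 5.15e-88), at a place where H2AX was below input (-0.34 ± 0.02). Next came bins without protein-coding genes at chr3:5800001-5900000 (2.06) and chr11:109000001-109100000 (2.05), where the H2AX ratio to input was -0.37 and -0.0078. The bins highest in H2AX were among those with the least gH2AX relative to H2AX, -0.69 at Sytl2, -0.60 at chr14:45800001-45900000 and -0.59 at Srgap1; the same H2AX libraries enter both comparisons. Among gene lists, replication-dependent histones had 7 of 8 bins with more gH2AX than H2AX and none with less (median 0.28). Clustered protocadherins had 8 of 10 with less and none with more (-0.22), vomeronasal receptors 181 of 216 with less (-0.13) and olfactory receptors 244 of 339 with less (-0.12).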

How the data were processed

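The authors deposited raw read counts per 100 kb bin of mm10, with 1 column per library. The submitters' processing notes name Bowtie2 (2.2.9), Trimmomatic (0.36), FastQC (0.11.3), deepTools (2.4.2), SAMtools (0.1.19) and MACS2 (2.2.7.1). How duplicates and reads with several alignments were treated is not given in the sources used here, and reads of repeats may come from any of their copies. The table held 24 further columns that match no labelled sample, which were not used.

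edgeR 4.0.16 (R 4.3.3) was run on the deposited counts (quasi-likelihood F test, two-sided), with a mean per antibody, sex and genotype group, the autosomal read total as library size and bins kept by filterByExpr. p-values were Benjamini-Hochberg adjusted over all tested bins. The spread is shared over bins, with a median biological coefficient of variation of 2.05%, which is why p-values of 4 against 4 libraries can be very small. Replicates differed by more than counting error (chi-square per degree of freedom 2.58 to 3.90). DESeq2 1.42.0 was an alternative. Read shares of 26 classes of bins were compared by exact permutation.

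Gene positions and promoters came from RefSeq on GRCm38.p6, which is the build mm10. The value of a gene is that of the bin with most of its body, and a list takes every bin its genes overlap. Bins and genes were named by rule: the 10 highest and 10 lowest called bins (1 of the highest is not reported here), the 6 widest stretches per direction, the top and bottom of each list and the called bins of each difference. Only part of these are given in full, and further genes of the lists were named for their roles. The 27 lists, the libraries and the comparisons were chosen with earlier results of these data known.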

Additional observations from a re-analysis of the deposited data

Results flagged for a closer look

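In 92 sets of 4 KO libraries (the named highest and lowest bins and the 26 classes of bins), 2 had a library far from the other 3, where chance alone flags about 1 in 20 sets. In the bin with Kdm4b and Uhrf1, H2AX of KO males replicate 2 had 60.7 CPM and the other 3 H2AX libraries 64.4 to 64.6. Chromosome 12 held 4.50% of the reads of KO male input replicate 1 and 4.51% of each of the other 3 input libraries.

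The log2 ratio of H2AX to input differed between KO and WT by -0.17 in the bin with Rn18s-rs5. Within males it differed by 0.34 at chr14:45800001-45900000, by 0.33 at Srgap1, by 0.31 at Sparcl1, by 0.23 at chr10:123800001-123900000 and by -0.25 at chr10:37600001-37700000.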

How the results depend on the processing

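The number of calls over input changed little: under 7 alternatives 19924 to 20462 bins were called in both sexes together, and 19690 to 20362 with any 1 library left out (female 17583 to 19422, male 16788 to 18528). gH2AX against H2AX gave 14378 to 15425 with 1 library left out. All 300 values of the 20 named extreme bins over 15 alternatives kept direction and call. Their choice as the most extreme called bins of these same libraries all but ensures this. The medians of 27 lists kept their sign under 3 alternatives, with 20 above the all-bin median each time. Leaving the 7 largest bins out of the totals turned the read share of chromosome 2 (0.0085), 9 (0.0501) and 15 (-0.0121) and of the first 5 Mb (0.0226, log2), and 25 of 26 classes then passed. Leaving out 1 library gave 21 to 23 passing classes in the exact permutation test, for which 3 against 4 libraries still allow p = 0.0286.

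Differences between groups depended on the settings. KO minus WT gave 2 bins with DESeq2, 3 with the replicate block and 1 to 11 with 1 library left out. In females it gave 1 with DESeq2, 1 with the block and 0 to 1. In males it gave 2 with DESeq2, 15 with the block and 0 to 120. Female minus male gave 0 to 28 with 1 library left out. The cause was not tested. The Rn18s-rs5 bin was called in each of these settings for KO minus WT over both sexes. Libraries of the same number hardly varied together over bins (r = 0.01 to 0.06 for H2AX and input). Counting error enters every bin, so this cannot tell whether the numbers pair the samples. The block left 20356 bins over input. The correction of lists for base composition was not run, as it needs a genome. The precision of single bins was limited by counting error and by spread between libraries beyond it: the median SE was 0.03 for the ratio, 0.03 for KO minus WT and 0.05 for female minus male.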
